A study of Mus musculus with 28 samples.

Results

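Protein folding chaperones were taken from the single-cell table by gene name. Hsp-named genes (Hspa, Hspb, Hspd, Hspe, Hsph and Hsp90) and the J-domain genes Dnaja, Dnajb and Dnajc were taken. So were the subunits of the chaperonin CCT (Cct2 to Cct8 and Tcp1), Pdia genes, Calr and Canx. Names holding -ps, a mark of pseudogenes, were left out. The rule found 92 genes among the 37974 genes of that table, with Hspa14 counted under more than 1 identifier. By the same identifier, 74 of them were found among the 36358 genes of the tissue table. Of the 92, 67 exceeded 1 FPKM (fragments assigned to a gene, divided by its transcript length and by the size of the library) in at least 3 of 22 cells and are called expressed below. The other 25 stayed under this limit, and 14 of them were listed at 0 in every cell.

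Protein folding is shared between compartments. In the cytosol, Hsp70 proteins bind unfolded stretches with the help of J-domain proteins, which deliver substrates and start the ATP cycle, and pass some clients to Hsp90 or to the barrel-shaped CCT complex that folds actin and tubulin. In the lumen of the endoplasmic reticulum (ER), the Hsp70 protein Hspa5 (BiP), the lectin chaperones calnexin (Canx) and calreticulin (Calr) and the disulfide isomerases of the Pdia family fold secreted and membrane proteins, and their genes are known targets of the unfolded protein response. Mitochondria hold a set of their own, among them Hspd1 and Hspe1, which form the Hsp60 and Hsp10 chaperonin.

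All samples came from C57BL/6 mice, from the ependymal and subependymal zone (the subventricular zone, a region that generates neurons) beside the striatum. Single cells were released with papain, sorted by size and complexity and amplified by Smart-seq2, and were labelled by the marker transcripts Prom1, Gfap, or Dlx2 and Dcx: 3 Prom1+ cells were from 1 month and 3 from 24 months, 2 Gfap+ cells from 1 month and 5 from 24 months, and 5 Dlx2+/Dcx+ cells from 1 month and 4 from 24 months. The 6 tissue samples were 3 at 3 weeks and 3 at 18 months. No label ties a cell to an animal, so each subpopulation at each age counts as 1 sample, and the cells are described by their values without a test.

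Between 4398 and 6626 genes exceeded 1 FPKM per cell (Prom1+ 5924 to 6626 at 24 months and 6054 to 6485 at 1 month, Gfap+ 5069 to 6061 and 4398 to 5491, Dlx2+/Dcx+ 5081 to 5304 and 5278 to 6286) and between 11733 and 12127 per tissue sample. Low tissue values fell on steps that correspond to about 18390000 to 22280000 fragments a sample. Of these values, 58.6% to 60% lay within 0.02 of a whole multiple of 1 fragment. The depth of the cells cannot be read from their FPKM. The study lists total and mapped reads of the cells, which were not used here. The Prom1+ cells held 8 of 10 listed genes of active neural stem cells above 1 FPKM in most cells. The Gfap+ cells held 11 of 12 oligodendrocyte genes, with a summed level of 40677 to 93857 FPKM against 21.6 to 279 in Prom1+ and 31.0 to 373 in Dlx2+/Dcx+ cells, so they are called by their label here without taking it as a cell type. Summed FPKM also ran higher in Gfap+ cells (1013520 to 1801300), and comparisons between subpopulations were repeated after scaling every cell to the same total (TPM).

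The most abundant chaperones were cytosolic. Over the 22 cells, Hsp90ab1, the constitutive Hsp90, had a lowest level of 375 FPKM, a median of 1534 and a highest of 4716. Hspa8, the constitutive Hsp70, had a median of 453 FPKM (101 to 1305), and Hsp90aa1, the inducible Hsp90, a median of 414 (74.7 to 1159). Tcp1 (median 248 FPKM), Cct6a (307), Hsp90b1 (228), Canx (205), Cct3 (197), Dnaja1 (173) and Hspe1 (128) completed the 10 genes with the highest mean. FPKM is scaled by transcript length, so these levels can be set beside each other. Together the 92 genes took between 0.421% and 1.07% of a cell's summed FPKM, with medians of 0.629% in Prom1+, 0.652% in Gfap+ and 0.571% in Dlx2+/Dcx+ cells.

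Among the 67 expressed genes, 9 (13.4%) exceeded 1 FPKM in all 22 cells, against 4.81% of all 11332 expressed genes: Cct5, Cct6a, Dnaja1, Hsp90aa1, Hsp90ab1, Hsp90b1, Hspa8, Hspd1 and Tcp1. In the 6 Prom1+ cells 33 of the 67 (49.3%) did so, against 18.3% of expressed genes. The share was 23.9% against 12% in the 7 Gfap+ cells and 22.4% against 10.3% in the 9 Dlx2+/Dcx+ cells. A Prom1+ cell held 48 to 53 of the 67 above 1 FPKM, a Gfap+ cell 35 to 47 and a Dlx2+/Dcx+ cell 35 to 50, and the Prom1+ cells also had high counts of detected genes of every kind.

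Inducible Hsp70 and most small heat shock genes were at or near 0 in the cells, while other inducible chaperones, such as Hsp90aa1, Dnajb1 and Hsph1, were found. Hspa1a, the inducible Hsp70, was listed at 0 in every cell, and its near copy Hspa1b was above 0 in only 2 Gfap+ cells (6.66 and 19.6 FPKM); reads of this pair can be split between them, so neither value is firm. Of the genes with a small heat shock name, Hspb1, Hspb2, Hspb3 and Hspb9 were at 0 in all cells, and Hspb8 was found in 1 Prom1+ cell at 0.189 FPKM. Hspb6 exceeded 1 FPKM in 2 Prom1+ cells (up to 30.5 FPKM) and 2 Dlx2+/Dcx+ cells (up to 13.2), and Hspb11 did so in 20 of 22 cells. Pdia2, Cct6b, Cct8l1, Dnaja4, Dnajb7, Dnajb8, Dnajb13, Dnajc22 and Dnajc5b made up the rest of the 14. An exact 0 in these cells can be a failed estimate, since Actb was listed at 0 in all 6 Prom1+ cells. In tissue, Hspb1 stood at 5.84 to 8.68 FPKM at 18 months, and 2 of the 53 chaperones with at least 5 FPKM in all 6 tissue samples (Hspb1 and Dnaja4, 3.77%) were at 0 in all cells, against 5.18% of the 5868 genes at that tissue level.

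The tissue comparison asked which chaperones differ between young and aged mouse brain around the lateral ventricle. Canx, the membrane-bound lectin chaperone of the ER, and Dnajc16, a J-domain protein, rose with age, and Dnajb5, a cytosolic J-domain protein, fell. No other chaperone passed either limit. Neither the Hsp90 genes nor the CCT subunits passed the test. The limma fit covered 63 of the 92 genes: 18 were not in the tissue table and 11 were under 1 FPKM in more than 3 samples.

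By the limits of the study (unadjusted p under 0.05 and a log2 fold change beyond 1 in size), 1 of the 63 genes was called, Canx, against 3.90% of the 12287 genes tested (1.83% higher and 2.07% lower). At an adjusted p under 0.05 (Benjamini-Hochberg over all genes tested) 3 were called, 2 higher and 1 lower, against 4.92% (2.51% higher and 2.42% lower). An unadjusted p under 0.05 was reached by 13 of 63, against 24.3% of all genes, and 19 of 63 had no overlap between aged and young values (13 above and 6 below at 18 months), against 33.1%. The chaperones' counts lay near or under the share of all genes on these measures. Their median log2 fold change was 0.13, beside 0.09 over all genes tested. With each library left out in turn this median lay between 0.05 and 0.23. Without replicate 3 of 18 months it was 0.05, beside 0.07 over all genes. Of the 63, 43 were higher at 18 months, beside 58.8% of all genes. Labels number the tissue samples but do not say that they came from separate animals, so these p-values measure the spread between samples.

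Canx (ENSMUSG00000020368, chr11:50293961-50325673 on the minus strand of GRCm38) was at 83.4, 106 and 123 FPKM in the samples from 18 months and at 39.6, 38.2 and 29.9 in those from 3 weeks. Every aged sample was above every young one by more than the spread within either age. The means were 104 ± 19.8 and 35.9 ± 5.22 FPKM (SD, n = 3 each), a 2.90-fold difference (log2 fold change 1.503, SE 0.19, adjusted p = 0.0163, limma). Calr, its soluble counterpart, was at 262, 270 and 254 FPKM at 18 months and 303, 330 and 266 at 3 weeks (log2 fold change -0.19, adjusted p = 0.357). Of this pair only Canx passed the test; the difference between the 2 genes was not tested. With fewer samples the adjusted p of Canx was 0.0177 without replicate 1 and 0.0481 without replicate 3 of 18 months, and missed 0.05 without replicate 2 of 18 months (0.0645) or without replicate 1 (0.0542), 2 (0.0716) or 3 (0.0562) of 3 weeks, with log2 fold changes of 1.37 to 1.65.

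Dnajc16 (chr4:141760189-141790931, minus strand) was at 9.06, 9.89 and 9.73 FPKM at 18 months and at 5.47, 5.27 and 5.58 at 3 weeks. The values within an age were close and the ages did not overlap (1.76-fold, log2 fold change 0.71, SE 0.11, adjusted p = 0.0257, limma). Dnajb5 (chr4:42949814-42959425, plus strand) was at 34.4, 34.1 and 42.5 FPKM at 18 months and at 58.1, 66.5 and 61.6 at 3 weeks. All 3 aged samples were below all young ones (0.596-fold, log2 fold change -0.74, SE 0.13, adjusted p = 0.0374, limma). With each sample left out in turn, Dnajc16 had an adjusted p under 0.05 only without replicate 1 of 18 months (0.0347) and Dnajb5 only without replicate 3 of 18 months (0.0465). In the 5 other leave-outs of each gene the adjusted p reached up to 0.113 for Dnajc16 and 0.142 for Dnajb5, and both kept their direction. In bulk tissue, fewer cells of a type and less RNA per cell cannot be told apart. All 9 tested genes of the oligodendrocyte list of 12 were lower at 18 months, 7 of them with an adjusted p under 0.05, and their summed level was 3850 to 4546 FPKM at 18 months and 20027 to 22229 at 3 weeks, with Olig1 at 0 at both ages and Olig2 at 0 at 18 months. The summed neuroblast list was at 219.8 to 227 against 355 to 401 FPKM (4 of 8 fell), that of active neural stem cells at 124 to 307 against 326 to 390 (3 of 10 fell), and the microglia list at 270.4 to 442 against 192 to 304 (1 of 8 rose). Unlike the oligodendrocyte, neuroblast and stem cell lists, the neuron list ran higher at 18 months, at 2452 to 2731 against 1512 to 1880 FPKM. Of its 7 tested genes 5 were higher (median 0.47), 1 of them past the limits of the study (Ppp1r1b, log2 fold change 1.27). None had an adjusted p under 0.05 and 3 had an unadjusted one (limma). The part of these cell types in the 3 chaperone differences was not tested.

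**Figure D1:**
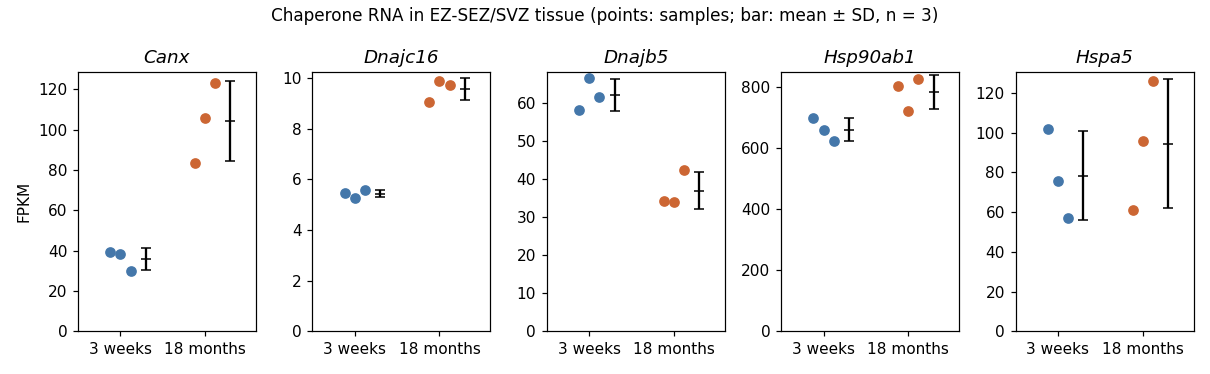
FPKM of Canx, Dnajc16, Dnajb5, Hsp90ab1 and Hspa5 in each tissue sample at 3 weeks and 18 months (points), with the mean and SD (n = 3). The ages do not overlap for Canx (83.4 to 123 against 29.9 to 39.6), Dnajc16, Dnajb5 and Hsp90ab1 (721 to 826 against 623 to 698). They overlap for Hspa5.

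The remaining genes of the ER lumen list, called ER genes here, overlapped between the ages in tissue or missed the test. Hspa5 was at 61.1, 95.9 and 126 FPKM at 18 months and 102, 75.9 and 57.1 at 3 weeks (log2 fold change 0.25, adjusted p = 0.684, limma). Hsp90b1 (Grp94, the ER Hsp90) had a log2 fold change of 0.25, Pdia3 of 0.35, Pdia4 of -0.09, Pdia6 of -0.07 and Hspa13 of 0.21, all with overlapping samples. Dnajc10, an ER reductase with a J domain that was chosen after its values were seen, was above in all 3 aged samples (log2 fold change 0.55, adjusted p = 0.147). Over the 10 ER genes tested, 6 were higher and 4 lower, with a median of 0.23.

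Neither Hsp90 gene and no cytosolic Hsp70 or CCT gene was called in tissue. Hsp90ab1 was at 802, 721 and 826 FPKM at 18 months and 698, 657 and 623 at 3 weeks (log2 fold change 0.25, adjusted p = 0.198, limma), and Hsp90aa1 at 253, 388 and 376 against 239, 248 and 224 (0.49, adjusted p = 0.183). Neither gene overlapped between ages. Neither passed the adjusted test with all samples, and Hsp90aa1 passed it without replicate 1 of 18 months (log2 fold change 0.69, adjusted p = 0.0274, limma). Hspa8 lay lower in all aged samples, at 554, 549 and 506 against 621, 608 and 593 FPKM (log2 fold change -0.18, adjusted p = 0.260). The 7 CCT subunits tested had log2 fold changes between 0.05 and 0.30, all above 0 and none with an adjusted p under 0.05, and the cytosolic Hsp70 and Hsp110 genes split into 4 higher and 4 lower (median -0.01). Among the Hsp70 genes the low-level Hspa1l had the largest value, a log2 fold change of 1.27 (adjusted p = 0.219), and passed the adjusted test without replicate 1 of 3 weeks (1.90, adjusted p = 0.0154).

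Of the 24 tested J-domain genes on neither the ER lumen nor the mitochondrial list, 19 had a log2 fold change above 0, with a median of 0.23. For all genes tested the share above 0 was 58.8%. This group is a remainder, so its proteins can also lie in the ER or mitochondria. The 2 calls are given above, and 8 had an unadjusted p under 0.05 (limma), beside 24.3% of all genes tested. Of these, a few are given here that were chosen after their values were seen. Dnajc13, which acts at endosomes, was at 9.09, 11.6 and 13.7 FPKM at 18 months against 6.68, 5.23 and 6.69 at 3 weeks (log2 fold change 0.78, adjusted p = 0.0756, limma). Without replicate 1 of 18 months its adjusted p was 0.0494, and that of Dnajc7, a cochaperone of Hsp70 and Hsp90, was 0.0240. With all samples Dnajc7 had a log2 fold change of 0.62 (adjusted p = 0.126), Dnajc6 (auxilin, which helps uncoat clathrin vesicles) of 0.45 (adjusted p = 0.138) and Dnaja1, a main Hsp70 partner, of -0.56 (adjusted p = 0.176). The 7 tested genes of the mitochondrial list had a median of 0.08, led by Hspa9 (mortalin) at 0.42 (adjusted p = 0.136, limma). The 4 genes tested with a small heat shock name (Hspb1, Hspb6, Hspb8 and Hspb11) had values under 0, with a median of -0.25 and none called. Without Hspb11, an intraflagellar transport protein, the median was -0.33.

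**Figure D2:**
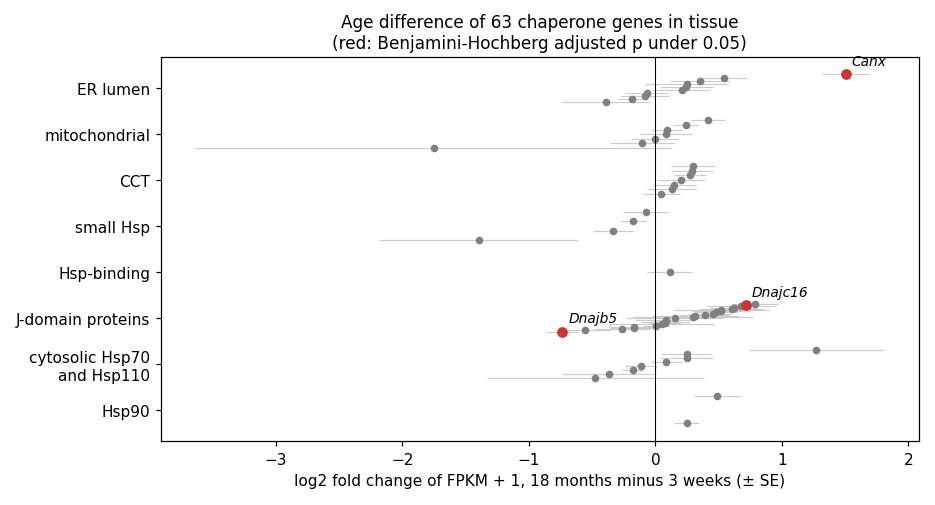
Log2 fold change of FPKM + 1 (18 months over 3 weeks, limma, bars are SE, n = 3 per age) for the 63 chaperones tested, grouped by role; red marks an adjusted p under 0.05. Canx stands apart at 1.503, Dnajc16 at 0.71 and Dnajb5 at -0.74 are the other 2 in red, and the 7 CCT subunits lie between 0.05 and 0.30.

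Partner proteins from lists outside the name rule were also mostly under the limits in tissue. Of 26 listed cochaperones (Hsp90 and Hsp70 partners, among them the collagen chaperone Serpinh1), 15 were tested and 1 was called: Serpinh1 fell, at 12.3, 15.9 and 15.4 FPKM at 18 months against 29.99, 34.6 and 30.7 at 3 weeks (log2 fold change -1.08, SE 0.14, adjusted p = 0.0168, limma). The cochaperone with the next smallest p, Unc45a, had a log2 fold change of 0.43 (adjusted p = 0.121). None of 4 prefoldin subunits, which feed CCT, passed, with Pfdn5 at 0.53 (adjusted p = 0.0658) and Pfdn2 at 0.35 (adjusted p = 0.151), and none of 3 mitochondrial partners did. Of 25 listed genes of the unfolded protein response, 18 were tested and none had an adjusted p under 0.05 (limma), while 2 had an unadjusted one: Manf, a secreted ER stress factor (log2 fold change -0.62, adjusted p = 0.180), and Atf6, an ER stress sensor (0.35, adjusted p = 0.201).

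In single cells the question was which chaperones differ with age within each subpopulation. The clearest set was in Prom1+ cells, where 4 ER chaperones were higher in every cell from 24 months than in every cell from 1 month: Hspa5, Calr, Pdia3 and Pdia4. None of these 4 was apart in the other subpopulations, where most ER genes had lower means at 24 months. A gene is called apart when the FPKM ranges of the 2 ages do not overlap and the means of log2(FPKM + 1) differ by more than 1. Among the 67 expressed chaperones 6 were apart in Prom1+ cells (5 higher and 1 lower at 24 months), against 7% of expressed genes (3.32% higher and 3.68% lower).

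Hspa5 (chr2:34771970-34777547, plus strand), the main ER Hsp70, was at 246, 251 and 292 FPKM in the 3 Prom1+ cells from 24 months and at 90.1, 90.2 and 48.1 in those from 1 month. The means were 263 ± 25.04 and 76.2 ± 24.3 FPKM (SD over cells, n = 3 each), a difference of 1.83 in mean log2. Calr (chr8:84841850-84846934, minus strand) was at 22.4, 35.2 and 33.2 FPKM against 0.201, 4.25 and 2.97, a difference of 3.39. Both genes were tight among the aged cells and left a wide gap to the young ones. The disulfide isomerase Pdia4 (chr6:47796141-47813430, minus strand) was at 123, 78.0 and 146 FPKM against 13.4, 10.7 and 20.7, a difference of 2.87. Pdia3 (chr2:121413775-121438687, plus strand), the isomerase that works with calnexin and calreticulin, was at 58.2, 143 and 168 FPKM against 47.6, 3.10 and 52.3, a difference of 2.36. For Pdia3 the gap between the ages was narrow, from 52.3 to 58.2 FPKM, and without replicate 2 of 1 month, the young cell at 3.10, its difference was 1.15.

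Of 13 expressed ER genes, 11 had a higher mean at 24 months in Prom1+ cells, with a median difference of 1.83, beside 47.9% of all expressed genes with a higher mean. Hsp90b1 was at 253, 647 and 203 FPKM against 315, 12.8 and 41.5, so that 1 young cell lay among the aged ones (difference 2.50). Dnajc10 (2.50), Dnajb11 (1.88), Dnajb9 (0.92), Canx (0.59), Hspa13 (0.52) and Pdia6 (0.09) were higher in the mean but overlapped, and Dnajc3 (-1.12) and Pdia5 (-2.72) were lower. Canx, the gene that rose in tissue, was at 109, 205 and 276 FPKM against 61.6, 204 and 142 in these cells. The summed FPKM of the ER genes was 1013, 1781 and 1320 in the aged Prom1+ cells and 713, 669 and 412 in the young ones; in TPM it was 1007, 1951 and 1266 against 753, 716 and 392. Without Hspa5, Calr, Pdia3 and Pdia4 the sums were 563, 1273 and 681 FPKM against 562, 561 and 288, so that the lowest aged and the highest young cell were nearly level. The summed cytosolic Hsp70 and Hsp110 genes did not overlap either, at 802, 813 and 661 FPKM in the aged and 465, 444 and 456 in the young Prom1+ cells, though none of these genes was apart.

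Other measures in these cells are given beside this result. The number of genes above 1 FPKM overlapped between the ages, as did the summed immediate early genes (62.8 to 4998 FPKM at 24 months and 1417 to 2977 at 1 month) and the share of FPKM from the mitochondrial genome (13.5% to 31.7% against 24.6% to 35.3%). Of 9 expressed immediate early genes, 7 had a lower mean at 24 months (median difference -1.34) and 2 were apart (named after their values were seen): Dusp1 was at 0.0795 to 2.90 FPKM against 88.9 to 355, and Egr1 at 0.552 to 372 against 519 to 660. Of 10 genes of active neural stem cells, 7 had a lower mean (median -0.98) and 2 were apart and lower. Summed microglia genes stayed at or under 3.90 FPKM. The part of these measures in the ER difference was not tested. The 4 ER genes also did not overlap between the ages in TPM, with and without mitochondrial genes.

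Several of the ER genes share promoter letters that the name rule did not use. The ER stress response element, searched on both strands as CCAAT and CCACG with 9 bases of any kind between them, was found in the window from 250 bases before to 50 bases after the RefSeq start of 37 of 27025 mouse genes (0.137%). It was in 6 of the 76 chaperones with a window, all 6 among the 13 ER genes with a window, and in none of the other roles (the cytosolic Hsp90 genes had no window). A shorter form, ATTGG and CCACG with 1 base between them, was in 12 genes (0.0444%), of which Dnajb11 was the only chaperone. They are shown because among them are Hspa5 and Calr, which were apart in Prom1+ cells, and Canx, which rose in tissue; Pdia3 and Pdia4 do not hold these exact letters in this window. Each stretch is read in the direction of its gene (RefSeq, GRCm38.p6) with the fixed letters of the element in capitals and up to 30 bases on either side; CGTGG with ATTGG marks a match on the opposite strand.
Hspa5: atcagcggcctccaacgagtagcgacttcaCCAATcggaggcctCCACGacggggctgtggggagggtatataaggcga
Calr: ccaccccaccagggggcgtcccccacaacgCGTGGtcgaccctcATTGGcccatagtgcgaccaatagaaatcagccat
Canx: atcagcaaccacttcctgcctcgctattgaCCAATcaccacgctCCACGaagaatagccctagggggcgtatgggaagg
Hsp90b1: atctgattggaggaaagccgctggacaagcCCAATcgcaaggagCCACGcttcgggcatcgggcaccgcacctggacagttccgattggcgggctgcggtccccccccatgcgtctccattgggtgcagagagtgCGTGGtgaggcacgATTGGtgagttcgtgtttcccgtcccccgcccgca
Pdia6: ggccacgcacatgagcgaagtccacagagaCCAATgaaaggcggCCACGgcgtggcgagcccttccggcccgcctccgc
Dnajc3: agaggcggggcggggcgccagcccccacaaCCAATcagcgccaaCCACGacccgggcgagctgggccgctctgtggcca

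The stretches lie at chr2:34771995-34772073 (plus strand, Hspa5), chr8:84847045-84847123 (minus, Calr), chr11:50325770-50325848 (minus, Canx), chr10:86705503-86705686 (minus, Hsp90b1), chr12:17266461-17266539 (plus, Pdia6) and chr14:118937797-118937875 (plus, Dnajc3). The element of Hspa5 sits 47 to 65 bases before the RefSeq start, that of Calr 144 to 162 and that of Canx 127 to 145. Hsp90b1 holds 2 matches on opposite strands. A match is a description of letters, not of a bound site. In Prom1+ cells 5 of the 6 genes with the element had a higher mean at 24 months, from 0.09 (Pdia6) to 3.39 (Calr), and Dnajc3 a lower one (-1.12). Of the 5 expressed ER genes whose window lacks both forms, 4 were also higher and 1 lower, and each group held 2 of the 4 genes that were apart.

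**Figure D3:**
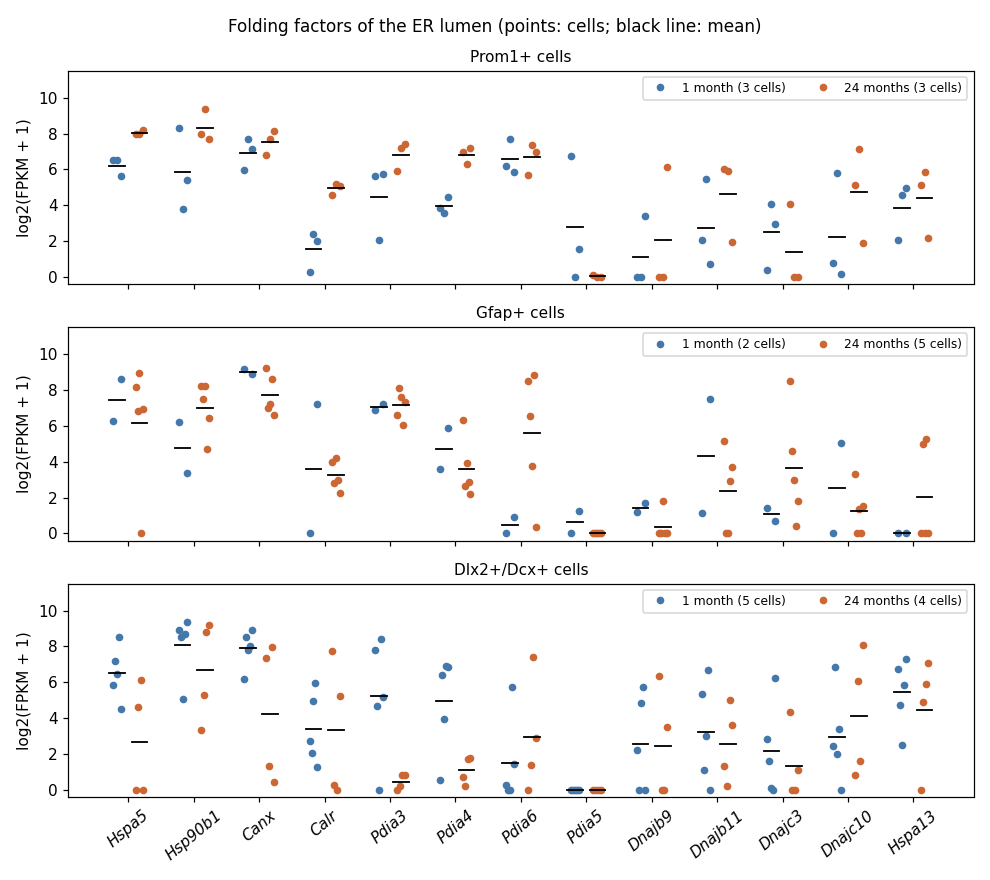
Log2(FPKM + 1) of the 13 expressed ER genes in each cell at 1 month and 24 months, in a panel for each subpopulation, with the mean as a black line. In Prom1+ cells the aged cells lie above all young ones for Hspa5, Calr, Pdia3 and Pdia4; in the other panels no ER gene is apart.

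In the other subpopulations none of these ER genes was apart. In Dlx2+/Dcx+ cells, Hspa5 was at 0, 0, 23.6 and 69.3 FPKM at 24 months and between 21.7 and 371 (median 87.5) at 1 month, with overlap. Pdia3 was between 0 and 0.794 FPKM at 24 months and between 0 and 335 at 1 month, and Pdia4 between 0.164 and 2.47 against 0.495 and 119. Calr was between 0 and 217 FPKM (median 18.7) at 24 months and between 1.41 and 62.2 (median 5.59) at 1 month, with its highest cell among the aged ones and a difference of -0.09 in mean log2. All 4 genes overlapped between the ages, and 2 of 13 ER genes had a higher mean at 24 months (median difference -0.80), beside 40.8% of expressed genes. In Gfap+ cells, 5 of 13 were higher in the mean (median -0.64), beside 55.8% of expressed genes, and none was apart, with Calr at 3.74 to 17.5 FPKM at 24 months and at 0 and 147 at 1 month. Whether the difference with age itself differs between subpopulations was not tested, since each is 1 sample at each age.

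Outside the ER, Prom1+ cells held 2 more genes apart. Cct4 (chr11:22990519-23003780, plus strand), a CCT subunit, was at 57.9, 77.0 and 34.9 FPKM at 24 months and at 87.3, 192 and 217 at 1 month, a difference of -1.50. Hspb11, which carries a small heat shock name but is an intraflagellar transport protein, was at 5.25, 5.45 and 134 FPKM against 4.92, 3.73 and 3.04. Its difference of 1.86 rests on the third aged cell, and without that cell it was 0.39. The other 7 CCT subunits overlapped, and 4 of 8 subunits were higher in the mean.

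In Gfap+ cells 4 of 67 were apart, against 5.35% of expressed genes, 2 higher (2.56%) and 2 lower (2.79%), and 3 of the 4 were CCT subunits. Cct3 was at 2.20 to 480 FPKM at 24 months and at 0 and 0.146 at 1 month, and Tcp1 at 260 to 1550 against 21.6 and 97.4. Cct2 ran the other way, at 0 to 89.7 FPKM against 214 and 358, as did the mitochondrial Hspd1, at 1.995 to 78.9 against 98.8 and 219.8. The share of FPKM from the mitochondrial genome did not overlap between the ages in these cells (15.4% to 22.3% at 24 months and 31.9% and 35.9% at 1 month). Neither did the summed immediate early genes (248 to 1080 against 22.3 and 107 FPKM) nor the neuron list (0.348 to 406 FPKM against 0 in both young cells). The part of these measures in the 4 differences was not tested. The young group holds only 2 cells, and the subunits that were apart in it did not share a direction.

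In Dlx2+/Dcx+ cells 3 of 67 were apart, against 1.58% of expressed genes, and all 3 were lower at 24 months (0.529% of expressed genes were higher and 1.05% lower). Broader measures of these cells also lay lower at 24 months: 35 to 39 of the 92 chaperones exceeded 1 FPKM in an aged cell against 41 to 52 in a young one, the chaperones' share of summed FPKM was 0.421% to 0.5708% against 0.5712% to 0.822%, the summed prefoldin list was at 417 to 734 against 841 to 1197 FPKM, and fewer genes of any kind were detected in most aged cells, as given above. The summed cochaperone list was at 1310 to 1588 against 1594 to 1941 FPKM, and the summed astrocyte list at 0.0747 to 12.9 against 20.3 to 579 FPKM, with all 4 expressed astrocyte genes lower in the mean (median -2.53) and none apart. Of 10 genes of active neural stem cells 2 were apart and lower. The part of these measures in the 3 differences was not tested. Dnajc19, a J-domain protein of the mitochondrial import motor, was at 0 to 2.23 FPKM at 24 months against 22.3 to 83.8 at 1 month, a difference of -4.87. Dnajc30, also mitochondrial, was at 0 to 0.802 FPKM against 1.31 to 113 (difference -3.22), and Cct6a at 90.1 to 167 against 330 to 591 (difference -1.57). In tissue neither mitochondrial gene was called: Dnajc19 had a log2 fold change of -0.10, and Dnajc30 was at 0 in 2 aged samples and 1 young one. The median difference over the 67 genes was -0.38 in Dlx2+/Dcx+ cells (-0.14 over all expressed genes). It was 0.11 in Prom1+ (0 over all) and -0.08 in Gfap+ cells (0.16 over all). With each cell left out in turn it lay between -0.64 and -0.14 in Dlx2+/Dcx+ and between 0.07 and 0.25 in Prom1+ cells. Without replicate 3 of 24 months the Dlx2+/Dcx+ median was -0.14, beside -0.16 over all expressed genes.

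Between subpopulations, both ages together, 3 chaperones were apart, all of them J-domain proteins (35 of the 67 expressed genes carry a J-domain name). Gfap+ cells had far more Dnajb2 than the others and little Dnajc9 or Dnajb1, and no chaperone was apart between Dlx2+/Dcx+ and Prom1+ cells. Gfap+ and Prom1+ cells were apart in 3 of 67 genes, 1 higher and 2 lower in Gfap+ cells, against 4.40% of expressed genes (2.52% and 1.89%). Gfap+ and Dlx2+/Dcx+ cells were apart in 1, higher in Gfap+ cells, against 3.05% (2.04% higher and 1.01% lower), and Dlx2+/Dcx+ and Prom1+ cells in 0, against 0.388%. The counts lie near these shares. With cells from 24 months only, 5 genes were apart between Gfap+ and Prom1+ cells (10.5% of expressed genes), 6 between Dlx2+/Dcx+ and Prom1+ cells (6.99%) and 6 between Gfap+ and Dlx2+/Dcx+ cells (7.55%).

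Dnajb2 (chr1:75236406-75245692, plus strand), a J-domain protein that binds ubiquitin chains, was between 82.9 and 532 FPKM in Gfap+ cells (median 311). It was between 0 and 47.0 in Prom1+ cells (median 0.455) and at or under 0.799 in Dlx2+/Dcx+ cells. The lowest Gfap+ cell was above every other cell in FPKM; in TPM, the lowest Gfap+ cell (48.4) fell under the highest Prom1+ cell (50.3), so that this pair overlapped. In tissue Dnajb2 was level, at 42.3 to 48.1 FPKM over both ages (log2 fold change 0.08). Dnajc9 (chr14:20384638-20388910, minus strand), a histone chaperone with a J domain, was between 88.3 and 416 FPKM in Prom1+ cells and between 0 and 13.5 in Gfap+ cells, and reached from 2.76 to 466 in Dlx2+/Dcx+ cells. Dnajb1 (chr8:83608193-83612653, plus strand), the classical Hsp40, was between 2.16 and 92.5 FPKM in Prom1+ cells and at or under 1.46 in Gfap+ cells, and between 1.18 and 157 in Dlx2+/Dcx+ cells. For both genes the Dlx2+/Dcx+ cells covered the range of the Prom1+ cells.

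**Figure D4:**
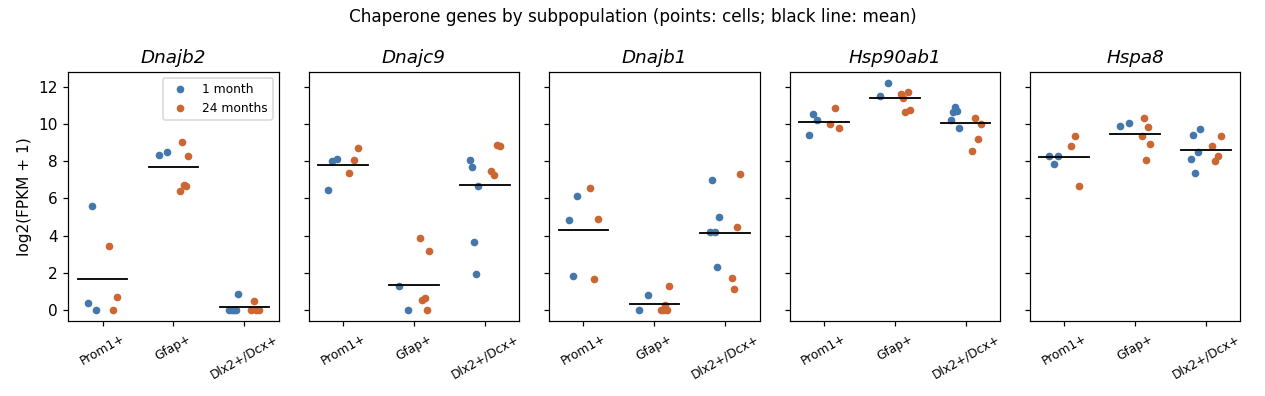
Log2(FPKM + 1) of Dnajb2, Dnajc9, Dnajb1, Hsp90ab1 and Hspa8 in each cell by subpopulation, with the mean as a black line. Gfap+ cells lie above all others for Dnajb2 (82.9 to 532 FPKM), and below all Prom1+ cells for Dnajc9 and Dnajb1. Hsp90ab1 and Hspa8 overlap.

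Of the 3 most abundant cytosolic genes, Hsp90ab1 and Hspa8 had their highest medians in Gfap+ cells on both scales, and none of the 3 was apart. Hsp90ab1 (chr17:45567775-45573271, minus strand) was between 1603 and 4716 FPKM in Gfap+ cells (median 2919), 690 and 1850 in Prom1+ cells (median 1111) and 375 and 1975 in Dlx2+/Dcx+ cells (median 1175). In TPM the medians were 1714, 1079 and 1276, closer together than in FPKM. Hspa8 had medians of 920, 309 and 357 FPKM in the same order, and 526, 310 and 328 after scaling. Hsp90aa1 had its highest median in Gfap+ cells in FPKM (543, against 380 in Prom1+ and 382 in Dlx2+/Dcx+ cells) and its lowest there in TPM (301, against 378 and 340), so its order changed with the scaling. The subpopulations overlapped on both scales for these genes. Dnajc6 was at 0 in all 6 Prom1+ cells, between 0 and 29.0 FPKM in Dlx2+/Dcx+ cells and at 221 and 872 FPKM in the 2 young Gfap+ cells, with 2 of 5 aged Gfap+ cells at 0; it was chosen for mention after its values were seen.

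CCT is built from 8 different subunits, and their detection differed between subpopulations. All 8 exceeded 1 FPKM in each of the 6 Prom1+ cells, whereas a Gfap+ cell held 5 to 8 and a Dlx2+/Dcx+ cell 6 to 8. Cct8 was at 0 in 3 of 7 Gfap+ cells, at 56.8 to 558 FPKM in Prom1+ cells and at 0.593 to 439 in Dlx2+/Dcx+ cells. Over the 7 subunits measured in both tables (Cct2 was not in that of the tissue), the highest exceeded the lowest by 4.55 to 12.6 times in Prom1+ cells and by 1.88 to 2.52 times in tissue samples. It did so by 6.58 to 1036 times in the 3 Gfap+ cells, and by 20.6 to 1665 times in the 8 Dlx2+/Dcx+ cells, in which none of the 7 was at 0. All 8 subunits had a lower mean in Gfap+ than in Prom1+ cells (median difference -1.99), and all 8 in Dlx2+/Dcx+ than in Prom1+ cells (-0.65); the number of genes detected of any kind was also lower in most of these cells.

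**Figure D5:**
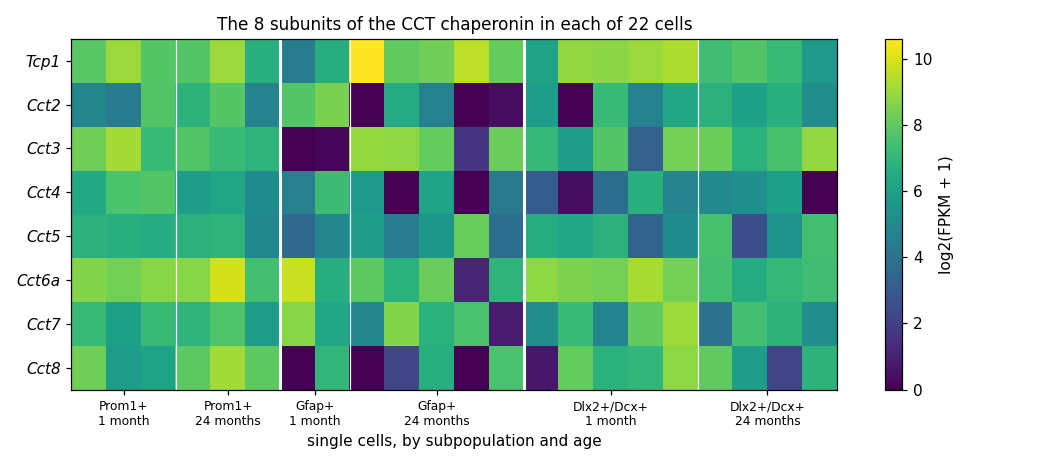
Heat map of log2(FPKM + 1) of the 8 CCT subunits in the 22 cells, ordered by subpopulation and age. The 6 Prom1+ cells show all 8 subunits, while gaps (values at or near 0) appear in Gfap+ and Dlx2+/Dcx+ cells.

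The mitochondrial chaperonin pair was found in nearly every cell. Hspd1 was between 30.2 and 263 FPKM in Prom1+, 1.995 and 219.8 in Gfap+ and 1.51 and 219 in Dlx2+/Dcx+ cells, and Hspe1 between 98.3 and 495, 1.94 and 852, and 0 and 161. All 3 subpopulations overlapped for both genes. The pair lies head to head on chromosome 1 and shares a heat shock element, searched on both strands as GAA, TTC and GAA with 2 bases of any kind between them, which was found in the windows of 179 of 27025 genes (0.662%) and of 4 of 76 chaperones: Hspd1, Hspe1, Dnajb6 and Hsph1. The shared stretch, chr1:55088029-55088106, is shown in the direction of Hspe1, 72 to 89 bases before its start and 127 to 144 before that of Hspd1 on the other strand, with the triplets of the element in capitals.
Hspe1: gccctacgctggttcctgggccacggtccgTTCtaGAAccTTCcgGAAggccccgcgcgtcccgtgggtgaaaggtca

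The other holders of the element differed in level. Hsph1 (Hsp110, which exchanges nucleotide on Hsp70) was between 1.02 and 287 FPKM in Prom1+ cells and at 0 in 3 of 7 Gfap+ and 5 of 9 Dlx2+/Dcx+ cells, and Dnajb6, a J-domain protein that holds back aggregation, was between 26.0 and 157 FPKM in Prom1+ cells, 0 and 585 in Gfap+ cells and 0 and 192 in Dlx2+/Dcx+ cells. None of the 4 was apart between subpopulations, and with age Hspd1 alone was apart, in Gfap+ cells as given above. In tissue none of the 4 was called, with log2 fold changes of 0.08 for Hspd1, -0.01 for Hspe1, 0.15 for Dnajb6 and 0.25 for Hsph1.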

How the data were processed

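Smart-seq2 libraries of 22 cells and RNA-seq of 6 tissue samples were analysed. The authors aligned reads with HISAT2 to GRCm38 and deposited gene-level FPKM from StringTie; featureCounts is also named in the submitters' processing notes, and versions and annotation are not given in the sources used here. FPKM are not counts and depend on the other genes of a library, so no count model was fitted.

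Groups came from the labels. Tissue genes with at least 1 FPKM in at least 3 of 6 samples were tested on log2(FPKM + 1) with limma 3.58.1 (R 4.3.3, two-sided, intensity trend); fold changes on this scale understate those of low genes. Cell genes above 1 FPKM in at least 3 of 22 cells were compared by ranges and means (Python 3.11.15, pandas 2.3.3), without a test. Gene positions came from the GRCm38 annotation and promoter windows from RefSeq. The labels describe papain digestion and sorting for all samples, the study's methods total RNA from tissue for the 6.

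Members and lists were chosen with earlier results of these data known. Any member could be named; values per sample are given for members called, apart or among the 10 highest by mean, and list genes outside the name rule are limited to at most the 4 of each list with the smallest p in tissue and to markers. Exceptions were chosen after their values were seen and are marked so. Scripts were tested on simulated data. Alternatives were a pseudocount of 0.1, no filter, TPM scaling with and without mitochondrial genes, quantile normalization, medians, 24 months only, a replicate block, and leaving out each library.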

Additional observations from a re-analysis of the deposited data

Results flagged for a closer look

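In 7 of 60 group values tested, 1 cell stood far from the others of its group by Dixon's ratio. All 7 were in groups of 4 or 5 cells, and the smaller groups gave none. The values are not independent, since sums were tested beside genes that they hold. A chance rate of about 1 in 20 applies to normally distributed values, which was not tested here. The 7 are therefore listed as descriptions, with no conclusion drawn from their number. The summed chaperone level, given first, passed its limit only narrowly. In Dlx2+/Dcx+ cells from 24 months, replicate 4 had a summed chaperone level of 6722 FPKM, above 4229 to 4578 in the other 3, and replicate 1 had 113 FPKM over the genes with a small heat shock name, against 1.75 to 4.04; all but a trace of it (112.8 FPKM) is Hspb11, an intraflagellar transport protein. In Dlx2+/Dcx+ cells from 1 month, Tcp1 was at 70.6 FPKM in replicate 1 (432 to 621 in the others) and Hsp90b1 at 32.2 FPKM in replicate 3 (367 to 661). In Gfap+ cells from 24 months, replicate 4 was low for 2 CCT subunits, Cct6a at 1.13 FPKM (107 to 289 in the others) and Cct3 at 2.20 FPKM (273 to 480), and replicate 5 was low for Hspe1 at 1.94 FPKM (135 to 462).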

How the results depend on the processing

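No called value changed sign. The median difference between Gfap+ and Dlx2+/Dcx+ cells over the 67 genes, 0.18, was -0.18 and -0.13 in TPM with and without mitochondrial genes, and that with age in Gfap+ cells lay between -0.42 and 0.33 when cells were left out, both within the spread between cells. Among summary results, 27 alternative values moved and 204 did not. With the sample number as a replicate block in tissue, 2 chaperones (Canx and Hspa1l) passed the limits of the study, against 4.11% of all genes. An adjusted p under 0.05 (limma) was reached by 0, against 0.138%. Same-numbered samples did not deviate together (correlations of -0.096, -0.011 and -0.098). With 3 samples per age, this cannot settle whether the numbers pair samples. Restricted to cells from 24 months, 5 chaperones were apart between Gfap+ and Prom1+, 6 between Dlx2+/Dcx+ and Prom1+ and 6 between Gfap+ and Dlx2+/Dcx+ (10.5%, 6.99% and 7.55% of expressed genes); fewer cells give narrower ranges. Under both TPM scalings Gfap+ and Dlx2+/Dcx+ cells were apart in 2, against 3.12% and 3.08% of expressed genes with and without mitochondrial genes. Leaving out each library in turn gave 1 to 2 chaperones past the tissue limits (3.73% to 5.05% of all genes tested). With an adjusted p under 0.05 (limma) it gave 0 to 5 (1.09% to 5.85%). There were 0 without replicate 2 of 18 months, or replicate 2 or 3 of 3 weeks, and 1 (Hspa1l) without replicate 1 of 3 weeks. Without replicate 1 of 18 months there were 5 (Canx, Dnajc16, Dnajc13, Hsp90aa1 and Dnajc7). With no filter Dnajc5b was called and Dnajb5 was not. The adjusted p over the alternatives was 0.0151 to 0.165 for Canx, 0.0223 to 0.204 for Dnajc16 and 0.0315 to 0.195 for Dnajb5. Leaving out a cell gave 10 to 13 genes apart by age in Prom1+ cells (13.1% to 14.0% of all expressed genes). It gave 5 to 18 in Gfap+ cells (7.41% to 20.3%) and 3 to 6 in Dlx2+/Dcx+ cells (2.36% to 3.20%). Between the pairs it gave 3 to 4 (4.88% to 5.29%), 0 to 0 (0.406% to 0.679%) and 1 to 2 (3.20% to 3.71%). Hspb11 was not apart under 3 alternatives. A cell left out cannot make ranges overlap, so these counts say nothing on how firm a gene is. The cause of the other changes was not tested. The depth of the cells, not used here, limits every value near 0.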

Other observations

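Outside the name rule, 1 small heat shock gene had by far its highest values in Gfap+ cells. Cryab, a small heat shock protein known in glia and chosen here after its values were seen, was between 7975 and 31561 FPKM in Gfap+ cells (median 17203), between 0.35 and 28.6 in Prom1+ cells and between 0.486 and 149 in Dlx2+/Dcx+ cells. With it, the summed cochaperone list was at 9412 to 34409 FPKM in Gfap+ cells, 1303 to 2308 in Prom1+ and 1310 to 1941 in Dlx2+/Dcx+ cells; without Cryab it was at 1437 to 3797, 1303 to 2279 and 1309 to 1939 FPKM, and overlapped. Of 25 expressed cochaperones 13 were higher and 12 lower in Gfap+ than in Prom1+ cells, and 1 was apart. These cells also carried the oligodendrocyte genes described above.

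Beside the ER chaperones, 22 genes of the unfolded protein response list were expressed in the cells, and in Prom1+ cells 11 were higher and 11 lower in the mean at 24 months (median difference 0.15). The genes named here were chosen after their values were seen. The single gene apart was Xbp1, a transcription factor of that response, which was listed at 0 in all 3 young cells and at 0.205, 69.3 and 118 FPKM in the aged ones. Of 25 expressed cochaperones in these cells, 6 were apart, beside 3.32% of expressed genes apart and higher and 3.68% apart and lower; 3 were higher at 24 months (Chordc1 by 3.41, Cacybp by 4.27 and Bag4 by 1.29 in mean log2), and 3 were lower: Ahsa1, the activator of the Hsp90 ATPase, by -4.20, the ubiquitin ligase Stub1 (CHIP) by -1.91 and Bag5 by -1.87.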
